A study of Arabidopsis thaliana with 54 samples.

Results

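The 8 jasmonate genes described here, all of Arabidopsis thaliana, were followed through 54 seedling RNA-seq libraries. They were chosen by locus: LOX2, OPR3 and JAZ10, plus AOS, LOX3, LOX4, JAZ1 and JAZ5 where the deposited table held them. The table held all 8, among 23997 rows. Whole seedlings were sampled after 5, 30 and 180 min. They were kept as a control or given 10 µM guvermectin (GV), or 1 µM of an auxin (IAA), of trans-zeatin (ZT, a cytokinin), of epibrassinolide (eBL, a brassinosteroid) or of the gibberellin GA3. Each of the 18 groups held 3 libraries. Guvermectin is a purine nucleoside, and its dose differed from that of the hormones. The labels name no ecotype, seedling age or control solvent.

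Jasmonates are lipid-derived hormones that plants make within minutes of wounding. Lipoxygenases (LOX2, LOX3, LOX4) oxygenate linolenic acid in plastids, allene oxide synthase (AOS) turns the product into an unstable epoxide, and OPR3 reduces the resulting cyclic acid in peroxisomes. JAZ proteins hold back the MYC transcription factors until the active hormone, jasmonoyl-isoleucine, joins them to the receptor COI1 and they are degraded. The JAZ genes are themselves switched on by jasmonate, which closes a feedback loop. In seedlings the hormone is known for wound and herbivore defence and for slowing root growth.

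LOX2 (AT3G45140) lies on chromosome 3 from 16525245 to 16529352 on the plus strand, and OPR3 (AT2G06050) on chromosome 2 from 2359114 to 2362375 on the minus strand. AOS (AT5G42650) occupies 17097564 to 17099595 of chromosome 5 on the minus strand, and JAZ10 (AT5G13220) 4218786 to 4221077 of the same chromosome on the plus strand. On chromosome 1, LOX3 (AT1G17420) spans 5977323 to 5981521 and JAZ1 (AT1G19180) 6621777 to 6623668, both on the plus strand. LOX4 (AT1G72520) follows from 27308513 to 27312756 on the plus strand, and JAZ5 (AT1G17380) lies from 5955155 to 5957511 on the minus strand. Positions are those of the TAIR10 build, and the table lists AOS as CYP74A, JAZ1 as TIFY10A and JAZ5 as TIFY11A. Of the 8 genes, JAZ10 alone overlaps another annotated gene, the antisense non-coding RNA AT5G02045. No source used here states whether counting used strand, so JAZ10 and AT5G02045 reads cannot be told apart.

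The 250 bases before the annotated start are shown for LOX2, OPR3, AOS and LOX4, 4 of the synthesis genes that rose with GV and with ZT at 5 min. They show the letters of known plant motifs in that window. LOX3, which rose as well, is described without its sequence. Sequences are from RefSeq's TAIR10.1 genome, read 5′ to 3′ on the strand of the gene. Capitals mark matches, on either strand, to the G-box CACGTG, to the related element AACGTG, to the W-box core TTGAC, which reads as GTCAA on the opposite strand, and to the core of the GCC-box, GCCGCC. MYC proteins are known to bind the G-box and AACGTG, WRKY proteins the W-box, and some ethylene response factors the GCC-box.
LOX2, chr3:16524995-16525244, plus strand: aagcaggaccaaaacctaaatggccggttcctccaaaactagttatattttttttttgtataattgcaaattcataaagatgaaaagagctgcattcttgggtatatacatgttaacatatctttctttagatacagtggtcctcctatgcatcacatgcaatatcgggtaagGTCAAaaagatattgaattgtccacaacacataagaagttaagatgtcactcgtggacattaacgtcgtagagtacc
OPR3, chr2:2362376-2362625, minus strand: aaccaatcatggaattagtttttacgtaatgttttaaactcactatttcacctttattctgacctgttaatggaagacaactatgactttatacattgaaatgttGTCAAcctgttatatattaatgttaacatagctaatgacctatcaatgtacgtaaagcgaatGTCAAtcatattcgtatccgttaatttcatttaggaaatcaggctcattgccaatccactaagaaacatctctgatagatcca
AOS, chr5:17099596-17099845, minus strand: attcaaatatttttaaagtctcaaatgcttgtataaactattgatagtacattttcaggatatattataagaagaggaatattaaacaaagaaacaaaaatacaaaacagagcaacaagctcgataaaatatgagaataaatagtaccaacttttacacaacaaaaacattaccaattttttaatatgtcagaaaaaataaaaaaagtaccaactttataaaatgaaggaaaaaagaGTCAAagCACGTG
LOX4, chr1:27308263-27308512, plus strand: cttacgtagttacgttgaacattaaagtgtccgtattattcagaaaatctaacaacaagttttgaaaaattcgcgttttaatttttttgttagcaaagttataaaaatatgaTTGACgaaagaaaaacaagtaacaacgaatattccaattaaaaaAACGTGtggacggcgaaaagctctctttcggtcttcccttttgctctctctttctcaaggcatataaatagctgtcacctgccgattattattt
In AOS the CACGTG occupied bases 6 to 1 before the start, with GTCAA at 13 to 9. LOX4 held AACGTG at 94 to 89 and TTGAC at 138 to 134. The window of LOX2 held 1 W-box core (77 to 73), and that of OPR3 held 2 (145 to 141 and 83 to 79). Of the genes not printed, LOX3 had 1 TTGAC, JAZ5 1 AACGTG, and JAZ10 none of these letters. Among 27443 protein-coding genes, 6.49% of windows of this length held CACGTG, 7.54% AACGTG, 44.9% TTGAC and 1.87% GCCGCC. A match describes the letters and is not a measured site.

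Levels are FPKM, read counts scaled to gene length and library size. Differences are of mean log2(FPKM + 1), called log2 differences, from limma with Benjamini-Hochberg adjusted p-values over the 10622 genes tested. A gene is said to have risen or fallen where its adjusted p was under 0.05. Whether the 3 libraries of a group were separate cultures is not stated. The SE and p-values reflect only the spread within groups, pooled over all 54 libraries and possibly a technical one. The implied library totals were 17.8 to 23.8 M reads, of which 5.65 to 7.51 M lay in the table. The GV columns carry a letter that the labels do not use and were assigned to GV as the one compound left, on which all GV values depend. Replicate 3 of eBL at 30 min stood apart, with correlations of 0.930 and 0.932 with its group against 0.984 or above for the other replicate pairs. At 30 min the first principal component (21.3% of the variance) put the control, GV and IAA libraries at -19.1 to -9.99 and the ZT, eBL and GA3 libraries at 15.9 to 27.4. At 180 min these ranges were -35.9 to -18.7 and -15.3 to 5.58, while at 5 min they overlapped. Across the genes tested, the ZT, eBL and GA3 groups at 30 min correlated at 0.965, 0.934 and 0.978 with the control of 5 min and at 0.937, 0.919 and 0.953 with that of 30 min. At 180 min the values were 0.950, 0.943 and 0.922 with the control of 5 min and 0.930, 0.940 and 0.931 with that of 180 min. GA3 at 5 min correlated at 0.931 with the control of its time and at 0.9345 with that of 30 min. On the second component (13.1% of the variance) its libraries lay at 29.5 to 29.7 and the 5 min controls at -11.7 to -11.3. The part of this in the GA3 differences at 5 min was not tested. Whether controls were exchanged or libraries made in batches was not tested. For ZT, eBL and GA3 at 30 and 180 min, compound and set of libraries cannot be told apart, so comparisons among these 3 compounds, and of GV and IAA with the control, are given beside the rest. In whole seedlings, fewer cells of a type and less RNA per cell cannot be told apart either. Root markers were above 0 in every group (4 genes summing to 2.47 to 25.1 FPKM), as were 5 leaf markers, so both organs were present in these libraries.

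The plot of levels in all libraries gives the range of each gene. Among the 7 of these genes that were tested, LOX2 varied most. Its group means ran from 0.0658 FPKM with IAA at 180 min to 6.80 ± 0.45 (SD, n = 3) with GV at 5 min, a ratio of 103.2. LOX2 had as few as 3 reads in a library, so the lower end of that ratio is near the floor. The next groups were ZT at 5 min (4.30 ± 0.54, SD, n = 3), eBL at 5 min (2.92 FPKM), GA3, ZT and eBL at 30 min (2.71, 2.55 and 2.07 FPKM), ZT at 180 min (1.67 FPKM) and the control of 5 min (1.63 FPKM). In the order of its 18 group means, 11 of 17 neighbouring groups of LOX2 overlapped in their libraries, against 13 for JAZ10, 16 for OPR3 and 17 for AOS. The other ratios of highest to lowest group mean were 9.16 for JAZ10, 8.68 for LOX3, 7.49 for JAZ1, 6.09 for LOX4, 2.64 for AOS and 2.02 for OPR3. ZT at 5 min was the highest group for OPR3, JAZ10, LOX3, LOX4, JAZ1 and JAZ5. OPR3, AOS and JAZ1 stayed at 1 FPKM or more in all 18 groups, JAZ10 in 15, LOX2 in 8, LOX4 in 5 and LOX3 in 2. JAZ5 reached 1 FPKM in none, had 0 to 31 reads a library and 0 reads in 7 libraries, and was not tested. A gene needed a mean of 1 FPKM in at least 1 group to be tested, so LOX3 entered only through GV and ZT at 5 min, where it is high. LOX4 entered only through ZT at 5, 30 and 180 min and GV and GA3 at 5 min, its 5 highest groups. No control group of LOX4 reached 1 FPKM, so its rises in those groups are descriptions. Counts over the 7 tested genes are for that reason a description.

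**Figure D1:**
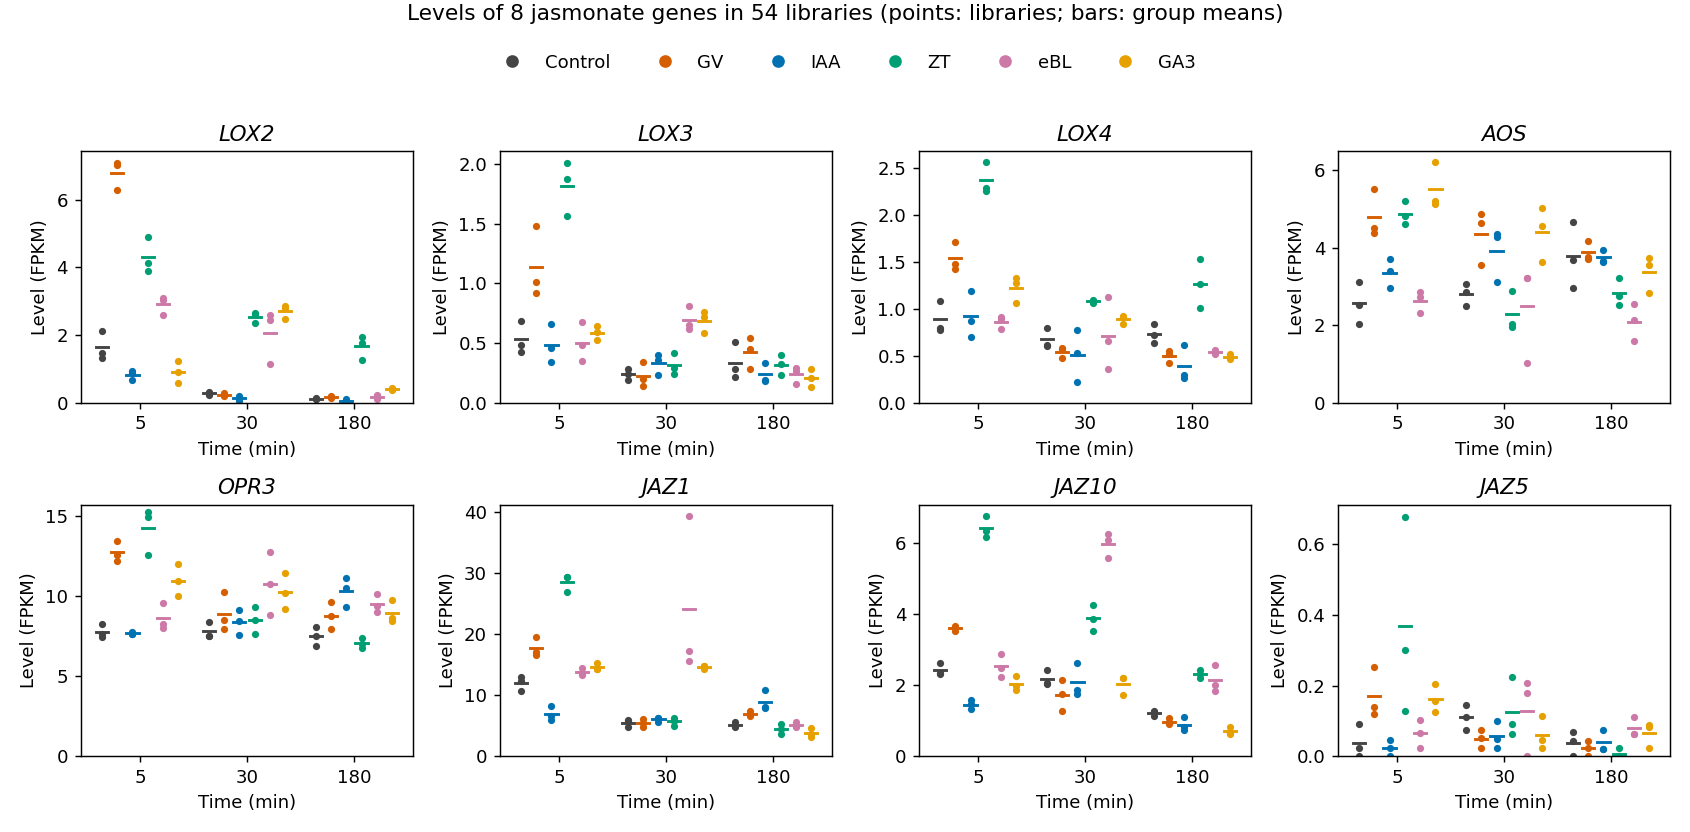
Level in FPKM (linear axis, own scale in each panel) against time in min for the 8 genes. Points are single libraries, short bars are means of 3, and colours are the control and the 5 compounds. LOX2 ran from 6.28 to 7.07 FPKM in the GV libraries at 5 min and from 1.32 to 2.12 in the controls, and single libraries of JAZ1 with eBL at 30 min lay at 15.6, 17.3 and 39.3 FPKM.

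In control seedlings LOX2 and JAZ1 were highest at the first time point. LOX2 stood at 1.32, 1.46 and 2.12 FPKM at 5 min and 0.322, 0.298 and 0.235 at 30 min. By 180 min it was at 0.110, 0.131 and 0.119 FPKM. The 3 times did not overlap in their libraries. LOX2 fell by 1.02 from 5 to 30 min (adjusted p = 2.91e-08) and by 1.22 from 5 to 180 min (adjusted p = 2.12e-10) as log2 differences. JAZ1, a repressor of MYC proteins, went from 10.7, 12.9 and 12.3 FPKM at 5 min to 5.94, 5.70 and 4.78 at 30 min, and fell by 1.00 (adjusted p = 7.78e-06). JAZ10, a repressor known for damping the jasmonate response, fell later, by 0.52 between 30 and 180 min (adjusted p = 0.000278). In all, 8 of 21 gene and time comparisons in controls were called (31.8% over all genes). The remaining calls were a fall of LOX3 from 5 to 30 min (lost in 5 alternatives at adjusted p 0.0624 to 0.163, among them those without replicate 2 of 5 min and replicate 1 or 2 of 30 min), JAZ1 and JAZ10 from 5 to 180 min, and a rise of AOS by 0.42 from 5 to 180 min (adjusted p = 0.0476) that was lost in 29 of 61 alternatives. OPR3 ranged from 6.89 to 8.41 FPKM in the 9 controls.

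At 5 min GV raised all 7 tested genes, LOX3 and LOX4 under the filter limit given above (11.0% of all genes were called with GV in either direction, 7.82% as higher). LOX2, the lipoxygenase known for bulk jasmonate synthesis in wounded leaves, stood at 7.04, 6.28 and 7.07 FPKM with GV. Every GV library was above every control library. The log2 difference between these 3 and 3 libraries was 1.58 ± 0.13 (SE from the fit over all 54 libraries, limma adjusted p = 7.37e-13). LOX3 and LOX4, which act redundantly in male fertility, stood at 0.921 to 1.48 and 1.43 to 1.71 FPKM against 0.427 to 0.689 and 0.781 to 1.09 in controls. Neither range overlapped with its control. Their log2 differences were 0.47 ± 0.11 (SE) for LOX3 and 0.43 ± 0.12 (SE, adjusted p = 0.0136) for LOX4. LOX3 passed the filter only through GV and ZT at 5 min, and GV at 5 min was also among the groups that let LOX4 in. Both differences with GV are therefore descriptions.

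The later enzymes rose with GV as well. AOS gave 4.52, 5.51 and 4.37 FPKM with GV and 2.53, 2.04 and 3.11 in controls. OPR3 gave 13.4, 12.2 and 12.6 FPKM against 8.28, 7.62 and 7.47. The groups did not overlap for either gene, with log2 differences of 0.71 ± 0.17 (SE, adjusted p = 0.00327) for AOS and 0.65 ± 0.10 (SE, adjusted p = 6.05e-06) for OPR3. Of the repressors, JAZ1 stood at 19.5, 16.6 and 17.0 FPKM and JAZ10 at 3.64, 3.65 and 3.52, above all controls (10.7 to 12.9 and 2.32 to 2.63). The log2 differences were 0.53 ± 0.17 (SE, adjusted p = 0.0301) and 0.42 ± 0.11 (SE, adjusted p = 0.00459). The calls of LOX2, OPR3, AOS and JAZ10 with GV held in all 61 alternatives. JAZ1 lost its call in 5 (adjusted p 0.0607 to 0.142), among them those without control replicate 1 or 3 and without GV replicate 1 or 3. LOX4 lost it in 6 (0.0574 to 0.0801), among them those without control replicate 1 or 2 and without GV replicate 3, and LOX3 in the fit on the compared groups alone (0.0639).

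ZT at 5 min also raised all 7 tested genes (27.5% of all genes were called with ZT, 19.5% as higher), and all 7 calls held in every alternative that tested the gene. JAZ1 stood at 26.9, 29.2 and 29.3 FPKM and JAZ10 at 6.17, 6.34 and 6.77. These were above every control and every GV library of that time. Their log2 differences from the control were 1.19 ± 0.17 (SE, adjusted p = 2.27e-07, and 0.53 after quantile normalization) and 1.11 ± 0.11 (SE, adjusted p = 1.77e-11). LOX2 reached 4.11, 3.88 and 4.91 FPKM, above every control and below every GV library, with a log2 difference of 1.02 (adjusted p = 2.24e-08). The remaining log2 differences with ZT were 0.88 for LOX3, 0.84 for LOX4, 0.79 for OPR3 and 0.73 for AOS. Those of LOX3 and LOX4 are descriptions, as with GV. JAZ5, read only in a fit with no filter on low values, was at 0.299, 0.127 and 0.677 FPKM with ZT and at 0, 0.0905 and 0.0235 in controls, with an adjusted p of 0.00035 there.

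GV (10 µM) and ZT (1 µM) had different doses, so they are set side by side and not at matched doses. The log2 difference of GV minus ZT at 5 min was 0.56 for LOX2 (95% interval 0.30 to 0.82, adjusted p = 0.00141). It was -0.66 for JAZ1 (adjusted p = 0.00394), -0.69 for JAZ10 (adjusted p = 4.07e-06), -0.40 for LOX3 and -0.41 for LOX4, so 5 of the 7 genes were called (15.3% over all genes). JAZ1 lost its call after quantile normalization, which put the difference at -0.07 (adjusted p = 0.772), and LOX2 lost it with a pseudocount of 0.1 (0.0730). LOX3 lost it in 4 alternatives (0.0518 to 0.163), among them those without GV or ZT replicate 3, and LOX4 in 6 (0.0501 to 0.158), among them those without GV replicate 1 or 2 and ZT replicate 2. For AOS the difference was -0.02 with an interval of -0.37 to 0.32, and for OPR3 -0.15 with an interval of -0.35 to 0.05.

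The other hormones at 5 min moved fewer of these genes than GV or ZT did. With IAA, 3 of the 7 fell (12.2% of all genes called, 5.29% as lower): JAZ1 to 8.24, 5.92 and 6.51 FPKM, JAZ10 to 1.32, 1.58 and 1.46, and LOX2 to 0.669, 0.865 and 0.934. All were below every control library. The log2 differences were -0.72 for JAZ1 (adjusted p = 0.00199), -0.48 for JAZ10 (adjusted p = 0.00116) and -0.52 for LOX2 (adjusted p = 0.00382, and 0.0657 without control replicate 3). With GA3, 3 of the 7 were called (34.7% of all genes). AOS was at 6.22, 5.12 and 5.20 FPKM, its highest group, and OPR3 at 12.0, 10.9 and 10.0, both above every control. LOX2 moved the other way, to 1.22, 0.591 and 0.916 FPKM, with log2 differences of 0.88 for AOS (adjusted p = 6.7e-05), 0.45 for OPR3 (adjusted p = 0.000414) and -0.47 for LOX2 (adjusted p = 0.00365, and 0.0607 without control replicate 3 or 0.0585 without GA3 replicate 2). With eBL, LOX2 alone was called (3.34% of all genes), at 3.05, 2.60 and 3.11 FPKM. Its log2 difference of 0.58 (adjusted p = 0.00455) was lost without control replicate 1 (adjusted p = 0.0604) and with a pseudocount of 0.1 (0.0561). Over the 5 compounds at 5 min, 21 of 35 gene and compound pairs were called, 17 higher and 4 lower, against 17.7% over all genes (12.0% higher and 5.71% lower).

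Other transcripts moved in the same libraries. Of 12 listed touch and handling genes the deposited table held 5: CML37, WRKY40, WRKY53, ZAT10 and MYB15. The touch genes TCH2, TCH3 and TCH4 were absent. Of the 5 genes held, 4 rose with GV (7.82% of all genes), 5 with ZT (19.5%) and 2 with GA3 (23.7%) at 5 min. Their summed level was 20.6 to 24.4 FPKM in controls, 27.1 to 29.6 with GV, 63.3 to 64.9 with ZT and 34.6 to 36.3 with GA3. MYB15, a transcription factor gene of that list, rose by 3.42 with ZT as a log2 difference (adjusted p = 8.34e-20). The 4 root markers summed to 7.77 to 10.1 FPKM in controls, 4.63 to 5.42 with GV, 2.47 to 3.29 with ZT and 24.1 to 25.1 with GA3, and none was at 0. With GV only TIP2-3 of them was called, as lower, and with ZT 3 fell. With GA3 3 of them rose (23.7% of all genes) and TIP2-3 fell. COBL9, 1 of those 3, passed the filter only through GA3 at 5 min (1.36 FPKM), so its rise is a description. Seed storage markers (5 genes) summed to 21.0 to 22.6 FPKM in controls, 6.68 to 8.13 with GV, 4.18 to 7.27 with ZT, 1.61 to 3.12 with IAA and 18.0 to 18.8 with GA3. Of the 5, 2 fell with GV, 3 fell and 1 rose (AT2S1) with ZT, and 3 fell with IAA. With GA3 2 fell and 2 rose (OLEO1 and OLEO2). Of all 10622 genes tested, 336 fell with GV, 852 with ZT, 562 with IAA and 1170 with GA3. The part of these lists in the jasmonate differences was not tested.

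**Figure D2:**
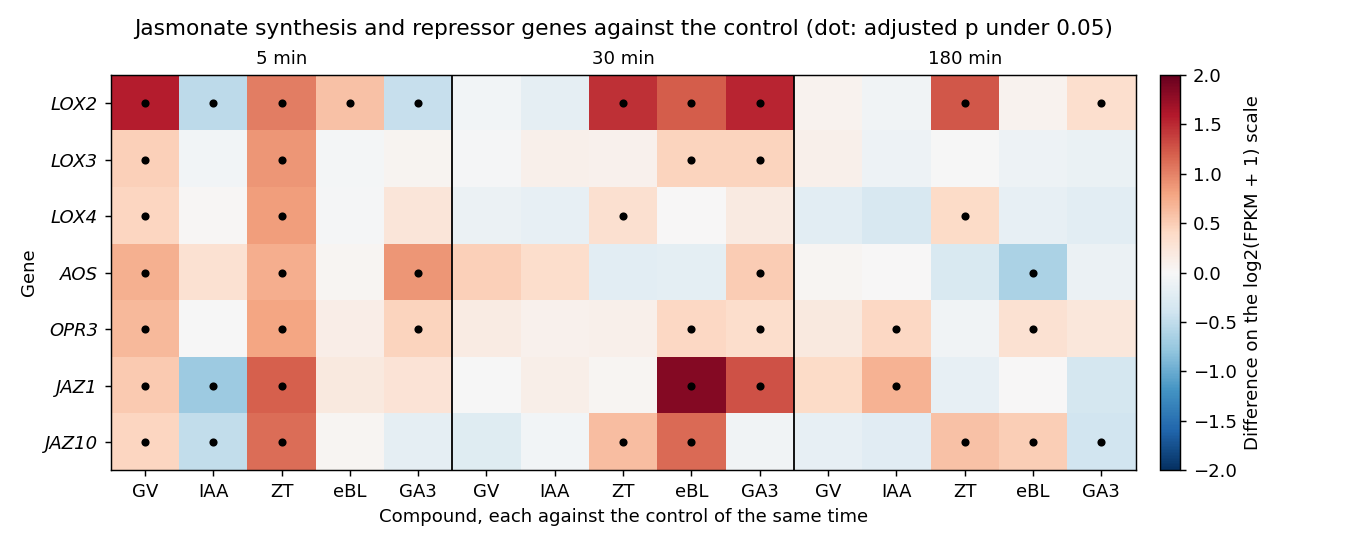
Difference from the control of the same time on the log2(FPKM + 1) scale (colour) for the 7 tested genes (rows) and the 5 compounds at 3 times (columns). Dots mark adjusted p under 0.05. All 7 genes carry a dot with GV and with ZT at 5 min, and none does with GV at 30 or 180 min.

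At 30 min, 13 of 35 gene and compound pairs were called, all as higher, against 25.6% over all genes (13.0% as higher). None of them was with GV (4.99% of all genes called) or with IAA (9.83%), which together called 7.41% over all genes. At an unadjusted p under 0.05 there were 3 of 14 gene and compound pairs for these compounds, with 0 under voom on recovered reads and 1 after quantile normalization. LOX2 with GV was at 0.197, 0.240 and 0.277 FPKM and with the control at 0.322, 0.298 and 0.235, and the groups overlapped. AOS with GV, at 4.63, 3.54 and 4.87 FPKM, lay above every control (2.5 to 3.06), with a log2 difference of 0.48 (95% interval 0.14 to 0.83) that did not pass the threshold (adjusted p = 0.105). Without replicate 3 of eBL at 30 min, which shares the fit, that adjusted p was 0.0152, and after quantile normalization 0.0404.

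The 13 calls at 30 min were among the 21 pairs with ZT, eBL and GA3, against 37.8% over all genes. Here the compounds and the set of libraries cannot be told apart. LOX2 stood at 2.62, 2.66 and 2.37 FPKM with ZT, at 2.60, 2.46 and 1.14 with eBL and at 2.87, 2.81 and 2.46 with GA3. All 9 were above the controls of 30 min, and those of the 5 min control lay at 1.32 to 2.12 FPKM. The log2 differences from the control of 30 min were 1.47 with ZT, 1.22 with eBL (1.46 without replicate 3) and 1.53 with GA3, each called. Within the set, LOX2 did not pass the test between ZT and eBL (log2 difference 0.25, interval -0.01 to 0.51), ZT and GA3 (-0.06, interval -0.32 to 0.19) or eBL and GA3 (-0.31, interval -0.57 to -0.05, adjusted p = 0.0569). Without replicate 3 of eBL the differences of eBL were 0.01 from ZT and -0.07 from GA3, while without its replicate 1 or 2 both were called (adjusted p 0.0201 and 0.0363 for ZT, 0.00855 and 0.0166 for GA3).

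The repressors differed within the same set of libraries. JAZ10 was at 6.26, 6.10 and 5.60 FPKM with eBL, at 4.27, 3.53 and 3.87 with ZT and at 1.73, 2.2 and 2.2 with GA3, and these ranges did not overlap. Its log2 difference was 1.2 for eBL minus GA3 (adjusted p = 8.59e-12), 0.68 for ZT minus GA3 (adjusted p = 3.03e-06) and -0.52 for ZT minus eBL (adjusted p = 0.00013, and 0.0665 in the fit on the compared groups alone). JAZ1 had another order: 17.3, 15.6 and 39.3 FPKM with eBL, 14.7, 14.3 and 14.7 with GA3 and 5.79, 5.02 and 6.23 with ZT. ZT was below all of the others, within the control range of 4.78 to 5.94 except for its highest library. The log2 difference of JAZ1 was -1.79 for ZT minus eBL (adjusted p = 8.41e-12) and -1.23 for ZT minus GA3 (adjusted p = 2.14e-07). For eBL minus GA3 it was 0.56 (adjusted p = 0.00832). Without replicate 3 of eBL that difference was 0.16 and not called (adjusted p = 0.386). Against the control, JAZ1 rose by 1.84 with eBL (1.43 without replicate 3, adjusted p = 7.14e-13) and by 1.27 with GA3 (adjusted p = 8.86e-08). JAZ10 rose by 1.14 with eBL (1.18 without replicate 3) and by 0.62 with ZT, and with GA3 its difference was -0.07.

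Among the enzymes downstream of LOX2 at 30 min, OPR3 rose with eBL by 0.41 (0.53 without replicate 3) and with GA3 by 0.35 as log2 differences. It was at 12.8, 10.8 and 8.85 FPKM with eBL and at 10.2, 11.4 and 9.20 with GA3, against 7.50 to 8.41 in controls. The call with eBL was lost in the fit on the compared groups alone (adjusted p = 0.154), and that with GA3 without GA3 replicate 2 (0.0561). AOS was called with GA3 only, at 5.04, 3.64 and 4.57 FPKM and a log2 difference of 0.50 (adjusted p = 0.0229), which was lost without GA3 replicate 1 (0.107) or 3 (0.0661), without control replicate 1 (0.0866) and with no filter on low values (0.0894). AOS also separated GA3 from the other hormones of its set, by -0.72 for ZT minus GA3 (adjusted p = 0.00179) and -0.70 for eBL minus GA3 (adjusted p = 0.00162), the latter -0.35 and not called without replicate 3 of eBL (adjusted p = 0.0891) and not called in the fit on the compared groups alone (0.301). With eBL the sign of AOS turned with replicate 3 (1.03 FPKM against 3.22 and 3.22), from -0.20 with it to 0.15 without it, and neither passed the test. LOX3 rose with eBL (0.45) and GA3 (0.44), and LOX4 rose with ZT (0.31), a call lost in 8 alternatives (adjusted p 0.0642 to 0.132), among them those without control replicate 2 or 3 and without any of the ZT replicates. The call of LOX3 with eBL was lost in the fit on the compared groups alone (0.0989). With ZT, 3 of 7 genes were called (38.6% of all genes), with eBL 5 (43.6%) and with GA3 5 (31.2%). The touch and handling genes summed to 22.8 to 24.4 FPKM in controls at 30 min, 14.9 to 16.8 with ZT, 34.1 to 38.6 with eBL and 38.9 to 39.7 with GA3. The root markers summed to 3.83 to 6.45 FPKM in controls, 12.5 to 14.4 with ZT, 8.37 to 12.9 with eBL and 5.995 to 7.015 with GA3, and TIP2-3 among them fell with ZT. Of 5 leaf markers 4 fell with ZT, 3 fell and 1 rose with eBL (RBCS2B) and 4 fell with GA3. Of all 10622 genes tested, 2075 fell with ZT, 2186 fell and 2450 rose with eBL and 1784 fell with GA3. The part of these lists in the jasmonate differences was not tested.

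At 180 min, 10 of 35 pairs were called (29.5% over all genes), 8 as higher (13.5%) and 2 as lower (16.0%). Of these, 2 of 14 pairs were called with GV and IAA (13.4% over all genes) and 8 of 21 with ZT, eBL and GA3 (40.2%). With GV 0 of 7 genes were called by limma (9.17% of all genes), with 2 at an unadjusted p under 0.05, 0 under voom and 1 after quantile normalization. JAZ1 with GV, at 7.34, 6.57 and 6.92 FPKM, lay above every control library (4.92, 5.57 and 4.73), with a log2 difference of 0.39 (interval 0.05 to 0.72, adjusted p = 0.153). That adjusted p was 0.0281 after quantile normalization, 0.0192 in the fit on the compared groups alone and 0.0119 without replicate 3 of eBL at 30 min. With IAA, JAZ1 and OPR3 rose (17.7% of all genes called). JAZ1 was at 7.89, 10.8 and 8.12 FPKM and OPR3 at 9.35, 10.5 and 11.1, above all controls. Their log2 differences were 0.70 (adjusted p = 0.00166) and 0.41 (adjusted p = 0.00188), and both held in every alternative. LOX4 with IAA, at 0.612, 0.262 and 0.295 FPKM against 0.837, 0.635 and 0.727, had a log2 difference of -0.33 (adjusted p = 0.0556) that passed the threshold in 8 alternatives (0.00983 to 0.0443), among them the fit without IAA replicate 1. All 5 leaf markers fell with IAA at 180 min (688 of all 10622 genes tested fell), and their part in these rises was not tested. For JAZ1 this rise followed a fall at 5 min, and the difference between times was called (F test in limma, adjusted p = 4.98e-05).

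With ZT at 180 min LOX2 remained above the control, at 1.77, 1.28 and 1.96 FPKM (log2 difference 1.24, adjusted p = 1.15e-10), and JAZ10 at 2.32, 2.22 and 2.43 (0.59, adjusted p = 1.61e-05). LOX4 rose by 0.38, which was lost without ZT replicate 2 (adjusted p = 0.0769), so 3 of 7 genes were called (41.7% of all genes). With eBL, 3 of 7 were called (38.0%). JAZ10 rose to 1.84, 2.01 and 2.57 FPKM (0.50, adjusted p = 0.00021) and OPR3 to 9.03, 10.2 and 9.36 (0.31, adjusted p = 0.0127, lost without control or eBL replicate 2 at 0.0753 and 0.066 and with no filter at 0.0616). AOS fell to 1.59, 2.13 and 2.54 FPKM from 3.69, 4.67 and 2.96 (-0.63, adjusted p = 0.00351), with no overlap. With GA3, 2 of 7 were called (41.0%). JAZ10 fell to 0.828, 0.651 and 0.626 FPKM, its lowest group (-0.38, adjusted p = 0.0037). LOX2 was at 0.376, 0.444 and 0.411 FPKM, above the control's 0.110 to 0.131, but its log2 difference of 0.33 (adjusted p = 0.0347) lost its call without any of the 6 compared libraries (0.055 to 0.086) and with no filter on low values (0.131).

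Of the 4 root markers, 2 fell with ZT and all 4 rose with eBL and with GA3 at 180 min, and of the 5 leaf markers 3 fell with ZT, 2 with eBL and 2 with GA3. Of all 10622 genes tested, 2622 fell with ZT, 1721 rose and 2315 fell with eBL, and 1842 rose and 2511 fell with GA3. The part of these markers in the jasmonate differences was not tested.

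Within that set at 180 min, LOX2 was higher with ZT than with eBL by 1.17 (adjusted p = 8e-10) and than with GA3 by 0.91 (adjusted p = 1.83e-07). LOX4 was higher with ZT than with eBL by 0.55 and than with GA3 by 0.60, and OPR3 lower by 0.38 and 0.30, the latter lost without GA3 replicate 2 (adjusted p = 0.0942), without ZT replicate 1 (0.0575) and with no filter (0.0697). JAZ10 was lower with GA3 than with ZT by 0.97 (adjusted p = 5.78e-10) and than with eBL by 0.88 (adjusted p = 1.41e-08). ZT and eBL did not pass the test for JAZ10 (0.09, interval -0.13 to 0.30). Over all 3 times, 116 of 210 gene and compound pair differences were called, against 30.5% over all genes.

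The response to a compound differed between the times in 20 of 35 gene and compound tests (36.6% over all genes), in 4 of 7 for GV (14.6%), 1 for IAA (19.8%), 6 for ZT (51.9%), 4 for eBL (43.5%) and 5 for GA3 (53.0%). For GV these were LOX2, OPR3, JAZ10 and LOX4, whose differences from the control were called at 5 min only. The tests of LOX3 and LOX4 between times are descriptions, under the filter limit given above. Without replicate 3 of eBL at 30 min, which shares the fit, AOS, JAZ1 and LOX3 were called with GV as well (adjusted p 0.0225, 0.0222 and 0.0379). LOX2 with GV went from 1.58 at 5 min to -0.05 at 30 min and 0.07 at 180 min. With ZT, LOX2 had log2 differences of 1.02, 1.47 and 1.24, and its test between times was not called (adjusted p = 0.0978). That depended on the scale: with a pseudocount of 0.1 the differences were 1.36, 2.79 and 2.99 and the test was called (adjusted p = 0.000222), as it was under voom (0.000232), after quantile normalization (0.00358) and without replicate 3 of eBL at 30 min (0.0291). JAZ1 with ZT had a log2 difference of 1.19 at 5 min, 0.05 at 30 min and -0.16 at 180 min (adjusted p = 9.14e-06). LOX2 with GA3 turned from -0.47 at 5 min to 1.53 at 30 min (adjusted p = 1.38e-11).

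A further 20 genes of jasmonate synthesis, turnover, repression and signalling were tested. Their lists follow known function but were chosen with earlier results of these data known, so the counts are a description. In that order the lists named 10, 10, 10 and 11 genes. The deposited table held 6, 8, 7 and 7 of them, and 4, 6, 5 and 5 were tested. At 5 min, 11 rose and 0 fell with GV (median log2 difference 0.41, against 0.03 over all genes, of which 11.0% were called), 12 rose and 1 fell with ZT (0.54 against 0.07, 27.5% called), 8 rose and 2 fell with GA3 (0.24 against 0.08, 34.7%), 2 rose and 2 fell with IAA (-0.02 against 0.03, 12.2%), and 0 changed with eBL in limma's test (4 at an unadjusted p under 0.05, 0 under voom). These genes, too, were tested only where some group mean reached 1 FPKM. AOC1 and AOC3, which encode allene oxide cyclases acting between AOS and OPR3, rose by 1.38 and 1.2 with ZT. The AOC genes are close copies, so reads assigned to each are uncertain. JOX2 and JOX3, oxygenases that inactivate jasmonic acid by hydroxylation, rose by 1.62 and 1.64 with ZT. JAZ6 rose by 0.77 with ZT, and JAZ11 fell by 0.47 with GA3. Of the signalling genes, ERF1, an ethylene and jasmonate response factor, passed the filter only through GV at 5 min and GA3 at 30 min, the groups where it was highest, and its difference with GV of 0.88 is a description. JAV1, a repressor of defence, fell by 0.70 with IAA.

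At 30 min GV changed 0 of these 20 genes in limma's test (2 at an unadjusted p under 0.05, 0 under voom), and 1 rose and 1 fell without replicate 3 of eBL in the fit. IAA raised 2 and lowered 1. ZT raised 9 and lowered 3, GA3 raised 13 and lowered 2, and eBL raised 14 and lowered 2, which became 13 and 0 without replicate 3. Over all genes 4.99% were called with GV, 9.83% with IAA, 38.6% with ZT, 31.2% with GA3 and 43.6% with eBL. JOX2 and JOX3 rose by 2.18 and 1.75 with eBL, LOX6, another lipoxygenase gene, by 0.86, and JAV1 by 1.10. AOC3 rose by 0.95 with IAA, and JAZ3 by 0.98 with ZT. ERF1 differed by 1.07 with GA3, under the same limit. At 180 min GV raised 2 and lowered 0, IAA 4 and 0, ZT 7 and 4, eBL 7 and 1, and GA3 7 and 3. Over all genes the shares called were 9.17%, 17.7%, 41.7%, 38.0% and 41.0%, so the counts with GV, IAA, eBL and GA3 lay near the background. JAZ3 (2.04), JOX3 (1.86) and LOX6 (1.13) rose with GA3, while AOC1 (-1.13) and JAZ6 (-0.74) fell. CYP94B3, which oxidises jasmonoyl-isoleucine, rose by 1.81 with eBL. These comparisons share their control libraries.

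**Figure D3:**
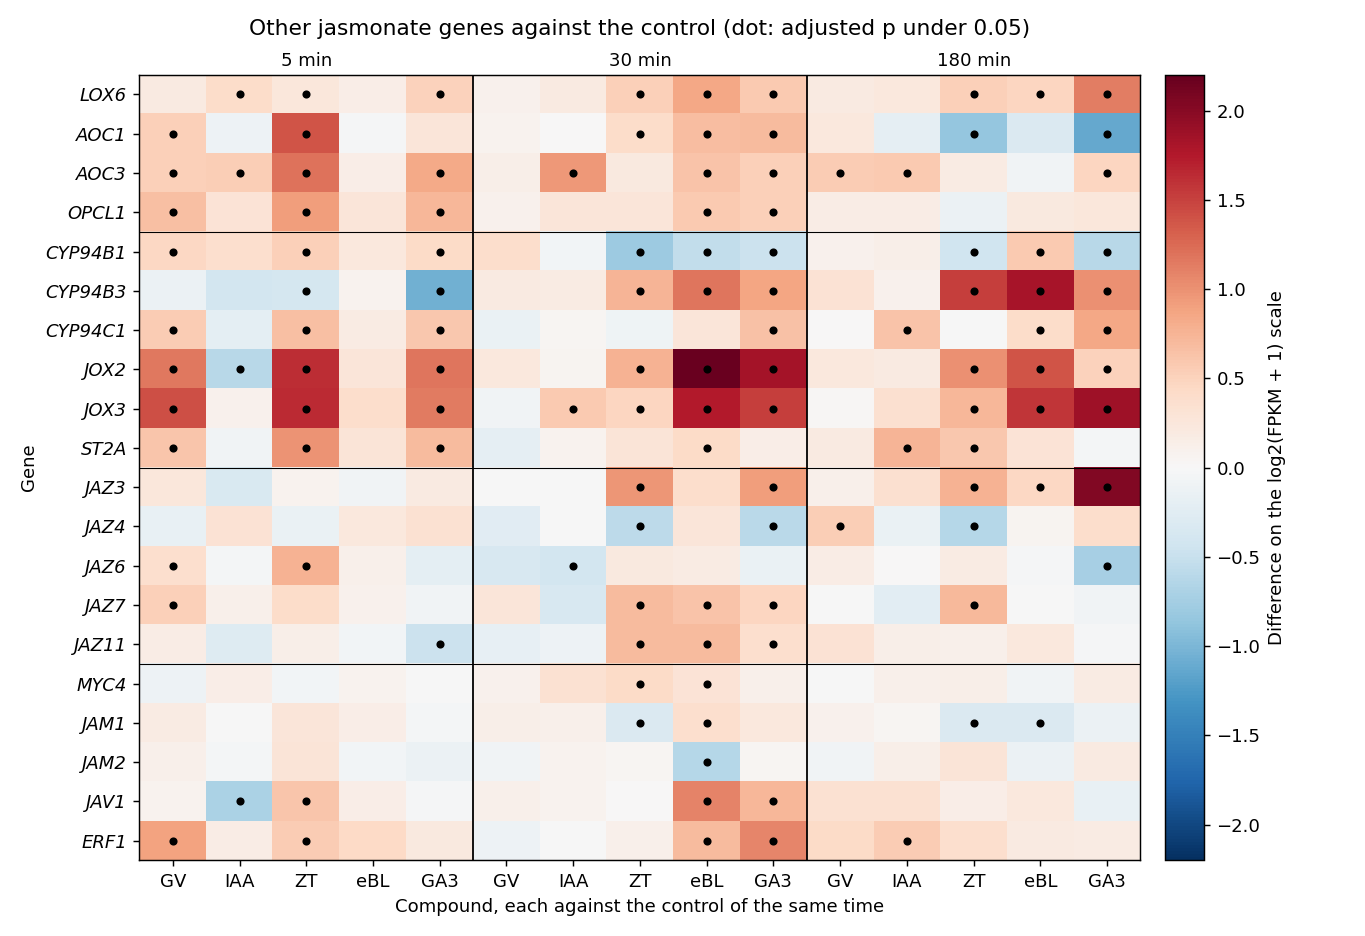
Difference from the control of the same time on the log2(FPKM + 1) scale (colour) for 20 other jasmonate genes (rows, in blocks of synthesis, turnover, JAZ repressors and signalling) and the 5 compounds at 3 times (columns). Dots mark adjusted p under 0.05, with 11 of them for GV at 5 min, 0 at 30 min and 2 at 180 min.

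Well-known end targets of the pathway were barely read in these seedlings. VSP1 and VSP2, vegetative storage proteins that jasmonate induces in leaves, had 79 and 251 reads in all over the 54 libraries. TAT3, CORI3 and PDF1.2B had 54, 22 and 23. THI2.1 and PDF1.2A were listed at 0 throughout, as were MYC2, the main transcription factor that JAZ proteins hold back, and JAZ13. None of the 7 targets passed the filter, so their response was not tested, and a listed 0 can also mean that no reads were assigned to a gene.

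Over the 18 group means, the 7 tested genes did not share 1 pattern. The closest pairs by Pearson's r were LOX3 with JAZ1 (0.868), LOX3 with LOX4 (0.821) and LOX2 with LOX4 (0.799). AOS stood furthest from LOX2 (0.09) and JAZ10 (-0.14). Among 5820 genes with at least 5 FPKM in their highest group, those most like LOX2 were AAO3 (0.950), an abscisic aldehyde oxidase gene, WAKL2 (0.948) and WRKY45 (0.936). For OPR3 they were PER4 (0.863), a peroxidase gene, AT2G43120 (0.859) and AR781 (0.854), and for JAZ10 FRB1 (0.921), RABH1C (0.911) and AT1G04200 (0.893). The group means share libraries, controls and the offset between the sets of libraries described above, and the correlations describe them only.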

How the data were processed

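RNA of whole Arabidopsis seedlings was sequenced in 54 libraries, 18 groups of 3. The authors' deposited table holds 54 library columns beside each gene's length. Per the submitters' processing notes, Bowtie2 2.2.3 and the TAIR10 build were used. The header names no unit. The deposited values were taken as FPKM because value times gene length fell on whole steps, taken as single reads (tolerance 0.05), for 100% of values in every library. No source used here gives the counter, its strand setting or further scaling. Of 24000 lines 3 were damaged and left out, and 0 library columns were unmatched. Row means ended at 10.5 FPKM and resumed at 344 FPKM (209 rows), so genes between were not analysed here. The table held 27.3% to 41.9% of each library's implied reads, and 1 read per kb of gene equals 0.0421 to 0.0562 FPKM.

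A gene was tested where any group mean reached 1 FPKM (10622 genes), with limma 3.58.1 in R 4.3.3 (trend and robust settings) on log2(FPKM + 1), with 1 mean per group, 54 libraries and 36 residual degrees of freedom. This scale understates differences of low genes. Benjamini-Hochberg adjustment ran over all genes tested. The steps were tested on simulated data. The start window of JAZ1 is not reported here. The 8 genes and the lists were chosen with earlier results of these data known. All 8 genes are described, list genes are named by the smallest adjusted p with any compound (up to 2 a list and time), and like genes by the 3 highest correlations. Alternatives were a pseudocount of 0.1, no filter (23997 genes), a mean of 1 FPKM over all libraries (8835 genes), quantile normalization, voom on recovered reads, the compared groups alone, a replicate block and leaving out each library.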

Additional observations from a re-analysis of the deposited data

Results flagged for a closer look

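For 20 combinations of gene and compound the difference from the control was not the same at 5, 30 and 180 min, by an F test of the compound and time interaction in limma with Benjamini-Hochberg adjustment (36.6% of combinations over all genes were called). With GV the adjusted p was 9.55e-10 for LOX2, 0.0198 for OPR3, 0.0017 for JAZ10 and 0.0117 for LOX4, each higher than the control at 5 min and not called later. With IAA it was 4.98e-05 for JAZ1, lower at 5 min and higher at 180 min.

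With ZT the adjusted p was 3.78e-06 for OPR3, 0.00419 for JAZ10, 0.00052 for AOS, 6.57e-06 for LOX3, 0.0176 for LOX4 and 9.14e-06 for JAZ1. Each of these 6 genes had its largest difference from the control at 5 min. LOX3 and LOX4 passed the filter only through groups where they were high, GV and ZT at 5 min among them. Their tests in this section, also with GV, are descriptions. With eBL it was 1.43e-05 for LOX2, 8.43e-07 for JAZ10, 0.00655 for LOX3 and 2.91e-08 for JAZ1, which had their largest differences at 30 min. With GA3 it was 1.38e-11 for LOX2, 0.00252 for AOS, 0.0053 for LOX3, 0.0456 for LOX4 and 1.08e-06 for JAZ1. For ZT, eBL and GA3 the times also differ in how far their libraries lay from the control libraries, and the 2 cannot be told apart. Calls lost in at least 1 alternative were LOX4 with GA3 (17 alternatives), with ZT (7) and with GV (1), OPR3 with GV (4) and JAZ10 with ZT (2).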

How the results depend on the processing

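The counts of called gene and compound pairs stayed within 1.5 times of those reported in each alternative. Against the control they were 17 to 22 at 5 min, 10 to 14 at 30 min and 8 to 13 at 180 min over the 7 alternatives other than leaving out a library, and 18 to 22, 12 to 14 and 8 to 14 without single libraries. They were 6 to 8 between control times in either case, 14 to 22 and 18 to 28 for differences between times, and 89 to 120 and 112 to 122 between compounds. The lowest of the first ranges came from the filter on the mean of all libraries, under which LOX3 and LOX4 were not tested, and at 30 min also from the compared groups alone. At 180 min and between control times they came from no filter on low values. Without single libraries, further calls were made for OPR3 with GA3 at 180 min (0.0364 to 0.0495) and JAZ1 with GA3 at 5 min (0.0454) and at 180 min (0.00762 to 0.0387). Of 52 called differences from the control or between control times, 36 held in every alternative that tested the gene and 16 were lost in at least 1, 10 of the 74 others were gained in at least 1, and 0 turned sign where called. Low genes had larger differences with a pseudocount of 0.1: LOX3 with ZT at 5 min 1.61 in place of 0.88, and LOX2 with ZT at 180 min 2.99 in place of 1.24. Quantile normalization shifted the median gene by -0.13 for ZT and -0.14 for GA3 at 5 min, and by under 0.1 for the other compounds and times. With the replicate number as a block (replicate block) the counts were 21, 13 and 10 against the control, 7 between control times, 19 between times and 116 between compounds. Numbers did not pair the samples: of 459 same-numbered pairs of libraries from different groups, 8 correlated above 0.1 in their deviations (median 0.000721), and of 918 differently numbered pairs 6 did. Genes near 1 FPKM or below, such as LOX3 (8 to 127 reads a library), are limited by depth.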

Other observations

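Transcripts of seed storage reserves varied widely between groups, also at 5 min. CRC, a cruciferin gene, differed from the control by -2.97 with IAA at 5 min, 1.94 with ZT at 30 min and -3.94 with ZT at 180 min as log2 differences, each called by limma. The 2S albumin gene AT2S2 differed by -2.21 with IAA at 5 min and OLEO1, an oil body protein gene, by -2.28 with ZT at 180 min. AT2S1, another 2S albumin gene, had 0 reads in the 3 controls of 30 min and stood at 2.97, 4.13 and 5.2 FPKM with GV. It passed the filter through that group and eBL at 5 min alone. Reads of near-identical 2S albumin genes cannot be told apart with certainty. With GV, 2 of the 5 seed storage genes fell at 5 min, 3 rose at 30 min and 3 fell at 180 min. Among all 10622 genes tested, 336 fell with GV at 5 min, 160 rose at 30 min and 380 fell at 180 min. AT2S1 is among the 3 that rose at 30 min. GV at 30 min was among the groups that let AT2S1 pass the filter, so its rise there is a description. With ZT at 30 min the list split (38.6% of all genes called). CRC rose, OLEO1 fell by 2.29 and OLEO2 of the same list by 1.57, and AT2S1 and AT2S2 were not called.

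Root and leaf genes moved with several compounds. PRP3, a root hair cell wall protein gene, rose by 2.21 with GA3 at 5 min, 2.19 with ZT at 30 min and 1.57 with GA3 at 180 min. TIP2-3, a root aquaporin gene, fell by 0.77 with GA3 and by 0.99 with ZT at 5 min and by 0.53 with ZT at 30 min, and rose by 1.79 with eBL at 180 min. LHCA1, a light-harvesting protein gene, fell by 1.23 with eBL at 30 min, and RBCS2B, a Rubisco small subunit gene, fell by 1.61 with GA3 at 180 min.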
